A study of Mus musculus with 4 samples.

Results

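The genes described here encode Polycomb proteins, DNA methylation and demethylation enzymes and a pair of heterochromatin factors, 36 genes of the 23420 gene rows of the deposited table. They were found by gene name, and all 36 are protein-coding genes in GENCODE M21. The samples were RNA from a pair of mouse lines of keratinocytes, the main cell type of the epidermis, called MK1 and MK2, and each was represented by 2 biological replicates. By its title the study concerned p63, the master transcription factor of stratified epithelia, in mouse and human epidermis. The labels name no treatment, genetic change, strain, age or passage for either line, so the only difference they give is the line itself. Each line stood for itself alone, and the p-values measure only how cultures within a line varied.

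Polycomb proteins keep developmental genes silent through a pair of chromatin-modifying complexes. PRC2 trimethylates histone H3 on a lysine of its tail, and PRC1 ubiquitinates histone H2A and compacts chromatin, with CBX subunits that read the PRC2 mark. DNA methylation is copied onto new DNA strands by DNMT1 with UHRF1, set on unmethylated DNA by DNMT3A and DNMT3B, and oxidised by the TET enzymes. In epidermis, Polycomb proteins and DNMT1 are known for keeping basal progenitors proliferating and for holding back differentiation genes and the Cdkn2a locus.

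The libraries held 25237391 to 30261111 counts. Levels are given as CPM, counts scaled to library size, and mean ± SD is over the 2 cultures of a line. Levels of different genes were compared only as TPM, which also divides by gene length. The keratinocyte label was checked with 16 basal markers, of which 15 stood at 10 CPM or more in both lines, among them Krt5 at 8032 ± 112 CPM (MK1) and 7943 ± 1300.1 CPM (MK2), Krt14 at 8763 ± 76.6 CPM (MK1) and 8387 ± 1119 CPM (MK2) and Trp63 at 217 ± 4.94 CPM (MK1) and 261 ± 6.32 CPM (MK2). These 3 were not called. Of the 16 markers 3 were called higher and 5 lower, beside 25.9% and 28.6% of all genes tested. Changes among those called included 1.03 for Itgb1, 0.83 for Itga6, -1.06 for Col17a1 and -0.76 for Lamb3. The marker under 10 CPM was Krt15, named after its values were seen, at 4.77 and 4.47 CPM in MK1 and 27.9 and 0.247 CPM in MK2, so the MK2 cultures stood far apart in it. Markers of other cells were low: the summed level of 10 fibroblast markers was 3.39 to 3.95 CPM in MK1 and 1.03 to 1.41 CPM in MK2, most of it Pdgfra at 3.22 and 2.53 CPM in MK1 and 0.318 and 0.988 CPM in MK2 (called lower), and Dcn, Lum and Pdgfrb were at 0. The 6 melanocyte markers summed to 2.68 to 2.73 CPM in MK1 and 2.98 to 3.28 CPM in MK2, and the 6 endothelial markers to 15.1 to 17.8 CPM and 25.4 to 27.4 CPM, nearly all of it Kdr at 15.5 ± 2.17 CPM (MK1) and 25.3 ± 1.28 CPM (MK2) (called higher), with Cdh5 and Emcn at 0. The 16 leukocyte markers summed to 51.6 to 54.8 CPM in MK1 and to 2.70 to 3.32 CPM in MK2. All 10 tested were called lower in MK2, beside 28.6% of all genes tested, and Cd3g and Tyrobp were at 0 in all 4 libraries. The 22 proliferation markers summed to 3207 to 3814 CPM in MK1 and 4775 to 5659 CPM in MK2. In bulk RNA, fewer cells with a transcript and less of it per cell cannot be told apart.

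Silencing genes differed between the lines mostly by less than 2-fold, and in both directions. Of the 36, Tet1 had too few counts to be tested. Among the other 35, 13 were called higher and 9 lower in MK2 (quasi-likelihood F test of edgeR, p adjusted by Benjamini-Hochberg over all 12479 genes tested, threshold 0.05). That is 62.9% of them, beside 54.6% of all genes tested, with 25.9% of all genes called higher and 28.6% lower. Their median log2 change, MK2 minus MK1 as for every change below, was 0.14, beside -0.0098 over all genes tested. Beyond 2-fold (edgeR's glmTreat), 2 were called, Phf19 and Cbx7, both lower, which is 5.71% of those tested beside 13.3% of all genes, and beside 10.1% of all genes called lower and 3.25% called higher by that rule. In 26 of the 35 the cultures of one line lay wholly above those of the other, beside 80.5% of all genes tested. The counts were smaller when an MK1 culture was left out. Without MK1 replicate 1, 5 were called higher and 5 lower, and without MK1 replicate 2, 7 were called higher and 5 lower, while calls over all genes went from 6810 to 3716 and 4369. Ezh1, Jarid2, Phf19, Bmi1, Pcgf6, Cbx6, Cbx7, Phc2 and Setdb1 kept call and direction in all 12 alternative fits.

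**Figure D1:**
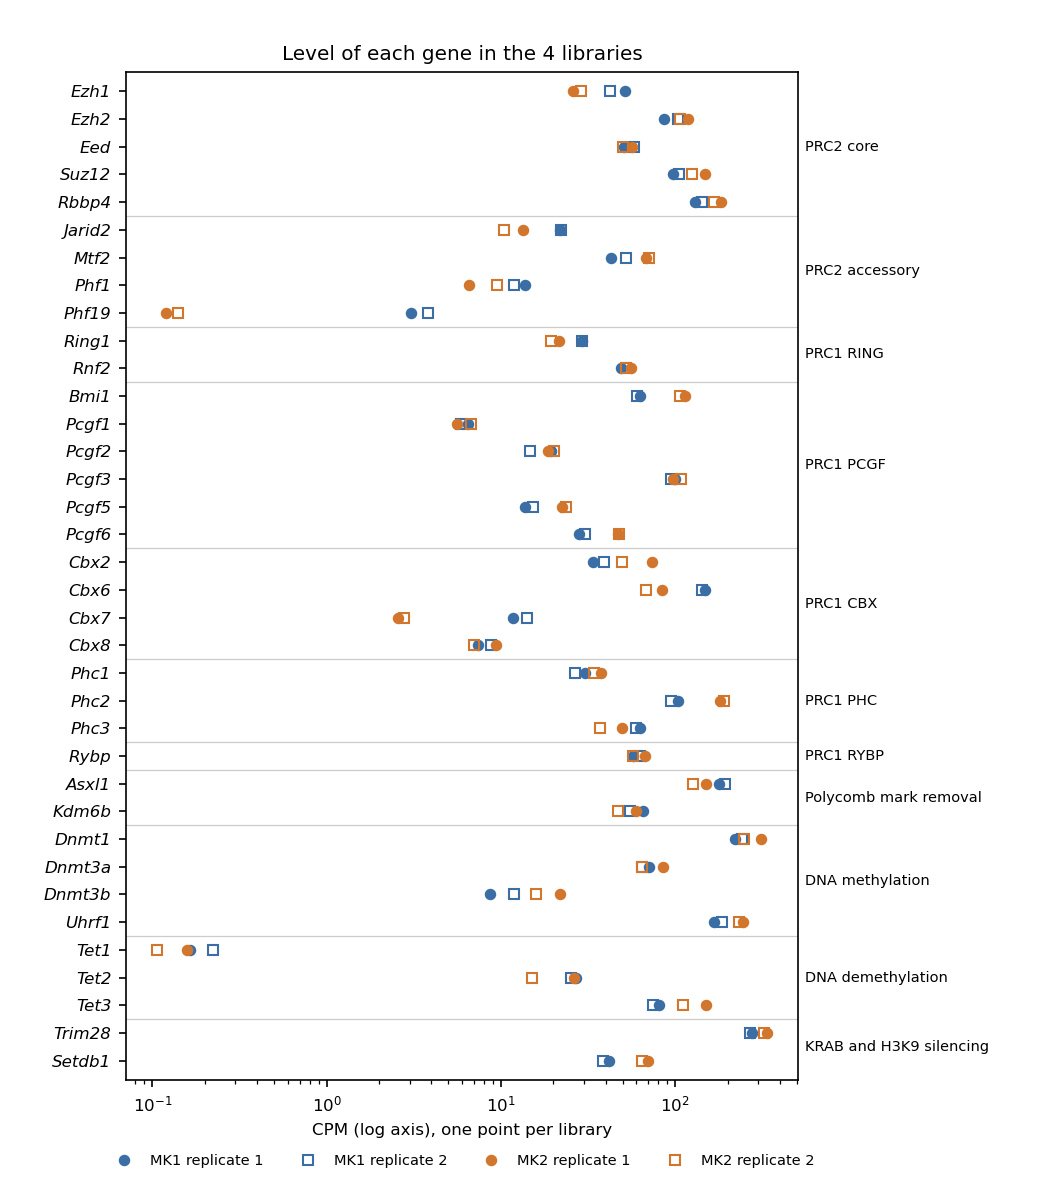
CPM (log axis) of the 36 genes in each library, with MK1 in blue, MK2 in orange, filled circles for replicate 1 and open squares for replicate 2. Phf19 and Cbx7 show the widest gaps between lines, and Tet1 lies below 1 CPM in all 4 libraries.

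**Figure D2:**
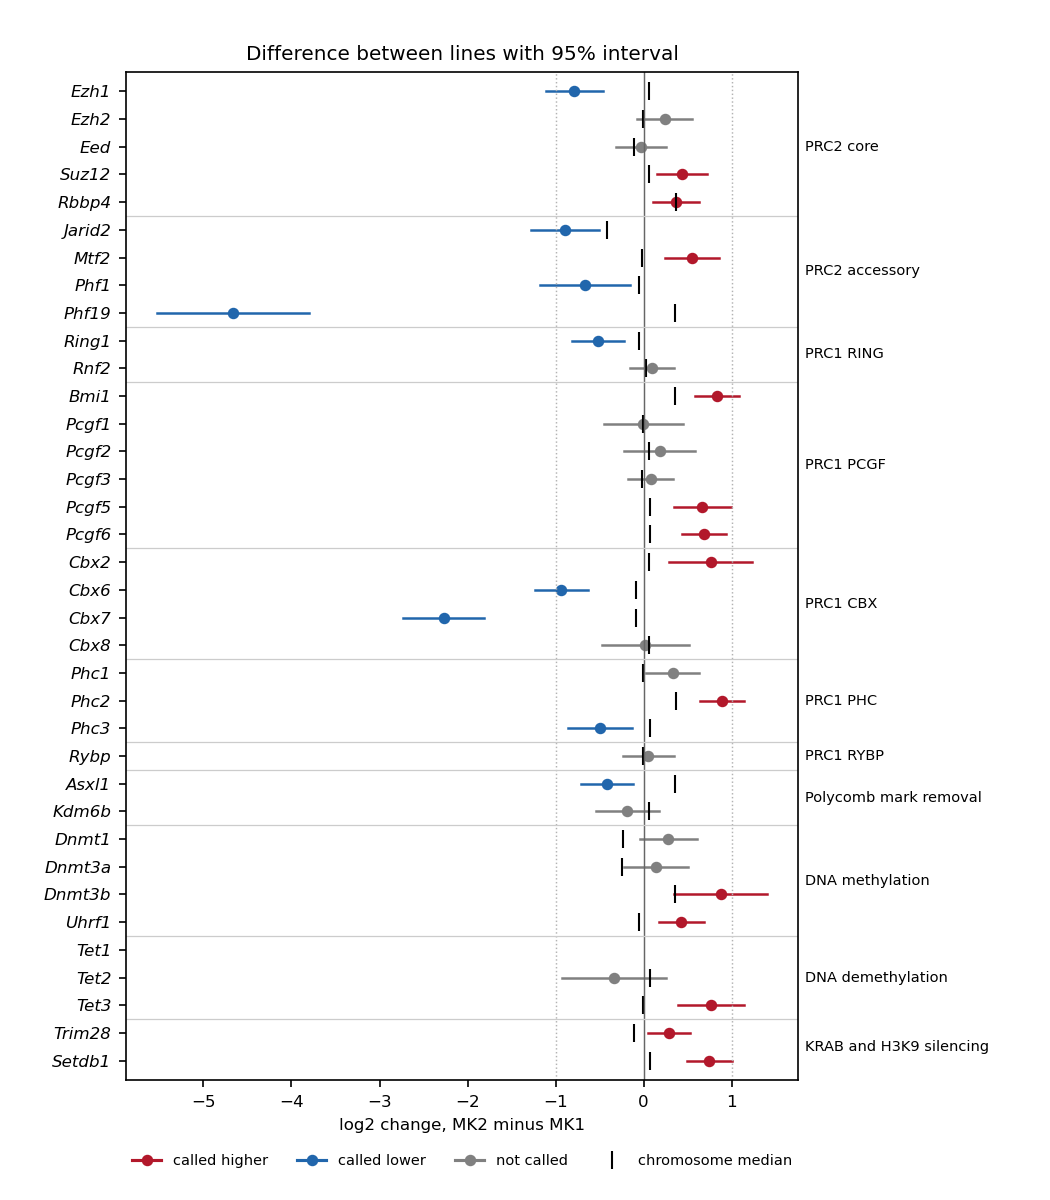
Log2 change between lines (MK2 minus MK1) of the 35 tested genes with 95% intervals from the fit, and the median change of all tested genes on the same chromosome as a black tick. Most called genes lie within 2-fold (dotted lines), and Phf19 (-4.66) and Cbx7 (-2.27) lie beyond it.

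Within the PRC2 core the catalytic subunits parted: Ezh1 was lower in MK2 and Ezh2 was not called. Ezh1 (chromosome 11, 101191115 to 101226450, mm10), the methyltransferase paralogue typical of resting cells, stood at 51.9 and 42.6 CPM in cultures of MK1 and 26.0 and 28.8 CPM in cultures of MK2. The MK2 cultures lay below both MK1 cultures, and the gene fell by 0.79 on the log2 scale (SE 0.14, adjusted p = 0.00326). Ezh2 (chromosome 6, 47530274 to 47595030), the paralogue typical of dividing cells, stood at 86.8 and 104 CPM in cultures of MK1 and 119 and 106 CPM in cultures of MK2. Its higher MK1 culture almost reached the lower MK2 culture, and its log2 change of 0.24 ± 0.13 (SE) missed the threshold (adjusted p = 0.162, 95% interval -0.071 to 0.55). Of the summed Ezh1 and Ezh2 TPM, Ezh2 took 72.5% and 79.4% in MK1 and 87.8% and 85.3% in MK2. These shares did not overlap between lines, whereas the sums did, at 95.1 to 102 TPM in MK1 and 92.4 to 103 TPM in MK2. Among all genes compared by share of a family, here and below, only Dnmt1 had a share that overlapped between lines. Lack of overlap in shares thus held also for genes whose own levels overlapped, such as Pcgf3 and Cbx8. Shares within a family are given as a description, since no exact permutation test can pass 0.05 with 2 cultures a line.

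Of the other 3 core genes, Suz12 and Rbbp4 were called higher and Eed was not called. Suz12, which holds the complex together, stood at 97.8 and 105 CPM in cultures of MK1 and 149 and 126 CPM in cultures of MK2 and rose by 0.44 (SE 0.12, adjusted p = 0.0210). Rbbp4, a histone-binding subunit shared with other complexes, stood at 129 and 142 CPM in MK1 and 184 and 167 CPM in MK2 and rose by 0.37 (SE 0.11, adjusted p = 0.0283). In both genes the cultures of the lines did not overlap, but neither call held without single libraries: for Suz12 the adjusted p was 0.151 without MK1 replicate 1, 0.0852 without MK1 replicate 2 and 0.0581 without MK2 replicate 1, and for Rbbp4 0.201 without MK1 replicate 1, 0.0854 without MK1 replicate 2 and 0.0671 without MK2 replicate 1. Of Rbbp4's exon length, 11.8% overlaps exons of Sync on the opposite strand, where reads cannot be assigned without strand. Rbbp4 lies on chromosome 4, where the median change of tested genes was 0.37, and with that median subtracted its change was -0.0035. Eed, which binds the trimethyl mark, overlapped between lines at 50.9 and 57.9 CPM in MK1 and 56.4 and 50.2 CPM in MK2, with a change of -0.029 ± 0.12 (SE) and an interval of -0.32 to 0.26.

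All 4 accessory PRC2 genes were called, 1 higher and 3 lower, beside 54.6% of all genes called, 25.9% higher and 28.6% lower. The largest change of the 35 tested genes was among them. Phf19, Phf1 and Mtf2 encode the Polycomb-like proteins that bring PRC2 to unmethylated CpG-rich DNA. Phf19 (chromosome 2, 34893755 to 34913976) had 93 and 102 counts in the MK1 cultures and 3 and 4 counts in the MK2 cultures. In CPM this was 3.06 and 3.80 CPM in MK1 and 0.119 and 0.141 CPM in MK2, so the gene was low in MK1 and near the limit of detection in MK2. Its log2 change was -4.66 ± 0.36 (SE, adjusted p = 1.51e-04), and the ratio of summed counts was 26.0-fold (95% interval 12.4 to 65.6, counting error only). Only its MK1 counts met the filter on low counts, so a difference could be found only as lower in MK2. The median change of tested genes on its chromosome was 0.36, and of its 50 tested neighbours 0.39, both of the opposite sign. The leukocyte markers in MK1 moved the same way, and their part in the Phf19 result was not tested.

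Mtf2, the paralogue that moved the other way, stood at 42.7 and 52.3 CPM in cultures of MK1 and 68.5 and 70.6 CPM in cultures of MK2, with both MK2 cultures above both MK1 cultures. It rose by 0.55 (SE 0.13, adjusted p = 0.0106), a call that ended without 1 library (adjusted p = 0.0903 without MK1 replicate 1). Phf1 stood at 13.7 and 11.9 CPM in MK1 and 6.60 and 9.56 CPM in MK2, and the MK2 cultures were themselves far apart. It fell by 0.66 (SE 0.21, adjusted p = 0.0356), and the adjusted p was 0.193 without MK1 replicate 1, 0.0901 without MK1 replicate 2 and 0.0938 without MK2 replicate 1. Of the summed TPM of the 3 Polycomb-like genes, Mtf2 took 55.8% and 62.8% in MK1 and 82.7% and 77.3% in MK2, Phf1 38.6% and 30.8% in MK1 and 17.1% and 22.5% in MK2, and Phf19 5.58% and 6.38% in MK1 and 0.201% and 0.216% in MK2. Mtf2 was the leading transcript of the family in all 4 libraries, and the sum lay between 31.0 and 32.9 TPM in MK1 and between 32.0 and 34.6 TPM in MK2. Jarid2 (chromosome 13, 44730774 to 44921643), a DNA-binding PRC2 cofactor outside that family, stood at 21.8 and 22.3 CPM in MK1 and 13.4 and 10.4 CPM in MK2 and fell by 0.89 (SE 0.16, adjusted p = 0.00412). The tested genes of its chromosome had a median of -0.41, and with that subtracted its change was -0.48.

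The upstream sequences of Phf19 and Mtf2 are shown because these paralogues moved in opposite directions. Each is the longest stretch outside annotated exons within the 250 bases before the RefSeq start (RefSeq, GRCm38.p6, the build of mm10), written 5′ to 3′ on the gene's strand with CpG dinucleotides in capitals. The Phf19 stretch is chr2:34914027-34914215 on the minus strand and the Mtf2 stretch is chr5:108065424-108065673 on the plus strand.
Phf19: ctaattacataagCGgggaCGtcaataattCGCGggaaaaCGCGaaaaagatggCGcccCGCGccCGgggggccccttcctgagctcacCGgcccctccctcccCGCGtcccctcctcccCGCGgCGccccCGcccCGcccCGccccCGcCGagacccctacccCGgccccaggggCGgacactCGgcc
Mtf2: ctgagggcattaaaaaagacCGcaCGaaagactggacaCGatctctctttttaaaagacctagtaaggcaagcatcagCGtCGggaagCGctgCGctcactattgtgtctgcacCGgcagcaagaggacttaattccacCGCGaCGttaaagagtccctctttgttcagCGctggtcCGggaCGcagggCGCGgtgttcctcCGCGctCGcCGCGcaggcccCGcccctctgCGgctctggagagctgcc
Both stretches are rich in CpG, with 24 in 189 bases for Phf19 and 23 in 250 bases for Mtf2. In the full 250 bases Phf19 had 31 CpG, more than 89.9% of 9266 tested genes with a promoter entry, and Mtf2 had 23. A promoter entry was matched for 32 of the 36 genes, whose median was 18.5 CpG, beside 16.0 for the tested genes. Phf19 also holds a match to TTTCCCGC, a form of the site bound by E2F factors. Searched with TTTGGCGC, TTTCGCGC and TTTGCCGC on both strands, with overlaps allowed, such letters occurred in 2 of the 32 (Phf19 and Suz12, 6.25%) and in 3.64% of the tested genes' promoters. A match describes the letters only.

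Of the 16 PRC1 genes, 5 were called higher and 4 lower, which is 56.2% called and near the 54.6% of all genes tested. Its catalytic RING subunits are Ring1 and Rnf2, and Rnf2 encodes RING1B. Ring1 (chromosome 17, 34020792 to 34024680) stood at 29.4 and 29.1 CPM in cultures of MK1 and 21.5 and 19.4 CPM in cultures of MK2, with tight MK1 cultures well above both MK2 cultures. It fell by 0.52 (SE 0.12, adjusted p = 0.0120), but the adjusted p was 0.0829 without MK1 replicate 1 and 0.0710 without MK1 replicate 2. Rnf2 stood at 49.1 and 52.6 CPM in MK1 and 55.9 and 52.6 CPM in MK2, and its change of 0.095 ± 0.11 (SE) was not called (interval -0.16 to 0.35). Of the pair's summed TPM, Rnf2 took 52.9% and 54.8% in MK1 and 63.6% and 64.6% in MK2.

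Of the 6 PCGF genes, which decide the type of PRC1 that a RING subunit joins, 3 rose and none was called lower, beside 25.9% of all genes called higher and 28.6% lower. Bmi1 (chromosome 2, 18677018 to 18686629), the PCGF subunit known for repressing Cdkn2a and for stem cell renewal, stood at 62.7 and 60.9 CPM in cultures of MK1 and 115 and 106 CPM in cultures of MK2. The lines were far apart relative to their cultures, and the rise was 0.84 (SE 0.10, adjusted p = 8.66e-04). Chromosome 2, where it lies, had a median change of 0.36, and with that subtracted the change of Bmi1 was 0.48. Pcgf6, a subunit of the germline-gene-repressing PRC1.6, stood at 28.3 and 30.6 CPM in MK1 and 47.2 and 47.5 CPM in MK2 and rose by 0.69 (SE 0.11, adjusted p = 0.00208). Pcgf5, found in a variant PRC1 with RYBP, stood at 13.8 and 15.4 CPM in MK1 and 22.6 and 23.6 CPM in MK2 and rose by 0.67 (SE 0.14, adjusted p = 0.00653; 0.0668 without MK1 replicate 1). These 3 genes were higher in every MK2 culture than in any MK1 culture.

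The remaining PCGF genes overlapped between lines. Pcgf3, close kin of Pcgf5, stood at 99.3 and 94.4 CPM in MK1 and 97.2 and 108 CPM in MK2, and its change was 0.08 ± 0.11 (SE, interval -0.18 to 0.34). Pcgf2, the paralogue of Bmi1 also called Mel18, stood at 19.3 and 14.8 CPM in MK1 and 18.7 and 20.1 CPM in MK2 (interval -0.22 to 0.58). Pcgf1, of the BCOR-containing PRC1.1, stood at 6.48 and 5.92 CPM in MK1 and 5.64 and 6.74 CPM in MK2 (interval -0.45 to 0.44). Per length, Pcgf3 led the family in MK1, and Bmi1 led in MK2. The share of Pcgf3 was 32.9% and 32.0% in MK1 and 24.0% and 25.9% in MK2, and that of Bmi1 was 21.6% and 21.4% in MK1 and 29.4% and 26.5% in MK2. The family's summed TPM was 163 to 171 in MK1 and 219 to 221 in MK2, with no overlap.

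The CBX genes, whose products read the PRC2 mark in canonical PRC1, differed in both directions. Cbx7 (chromosome 15, 79915807 to 79932646), whose protein is known for binding the trimethyl mark and for repressing Cdkn2a, stood at 11.7 and 14.2 CPM in cultures of MK1 and 2.58 and 2.79 CPM in cultures of MK2. Both MK2 cultures lay several-fold below both MK1 cultures, and the log2 change was -2.27 ± 0.19 (SE, adjusted p = 2.04e-04), 4.82-fold lower. Its neighbour Cbx6 (chromosome 15, 79823898 to 79834333), 81474 bases away, stood at 148 and 143 CPM in MK1 and 83.7 and 68.5 CPM in MK2 and fell by 0.94 (SE 0.13, adjusted p = 0.00121). Their chromosome had a median change of -0.083, and the 50 tested neighbours had -0.22. Exons of Npcd on the same strand overlap 12.1% of Cbx6's exon length, where reads cannot be assigned to a single gene. Cbx7 and Cbx6 were lower along with the leukocyte markers given above, whose part in these results was not tested.

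Cbx2 (chromosome 11, 119023029 to 119031270), whose protein compacts nucleosomes, went the opposite way at 33.7 and 39.1 CPM in cultures of MK1 and 73.9 and 49.4 CPM in cultures of MK2. It rose by 0.76 (SE 0.20, adjusted p = 0.0161), with a wide gap between the MK2 cultures, and the adjusted p was 0.127 without MK1 replicate 1 and 0.0608 without MK1 replicate 2. Cbx8, 7166 bases from Cbx2, overlapped between lines at 7.43 and 8.75 CPM in MK1 and 9.42 and 6.98 CPM in MK2, with a change of 0.018 ± 0.21 (SE) and an interval of -0.48 to 0.51. Neighbouring CBX genes on chromosome 11 thus differed in their calls, whereas those on chromosome 15 were both lower. Of the summed TPM of these 4 genes, Cbx6 held 59.6% and 54.9% in MK1 and 35.9% and 39.6% in MK2, and Cbx2 held 19.8% and 21.8% in MK1 and 46.2% and 41.6% in MK2. Cbx7 held 8.92% and 10.2% in MK1 and 2.09% and 3.03% in MK2. Cbx6 led in both MK1 libraries and Cbx2 led in both MK2 libraries.

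The upstream stretches of Cbx7 and Cbx8 are shown because their proteins share the chromodomain fold while their RNA differed in behaviour. They were chosen and marked as for Phf19, from chr15:79932769-79932896 and chr11:119040970-119041163, both on the minus strand.
Cbx7: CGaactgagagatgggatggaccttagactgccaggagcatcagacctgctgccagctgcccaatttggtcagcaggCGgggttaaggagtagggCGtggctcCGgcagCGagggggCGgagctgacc
Cbx8: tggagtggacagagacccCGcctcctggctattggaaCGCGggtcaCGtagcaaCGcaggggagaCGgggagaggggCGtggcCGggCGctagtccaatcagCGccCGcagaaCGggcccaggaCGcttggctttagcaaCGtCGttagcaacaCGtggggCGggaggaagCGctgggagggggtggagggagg
In their full 250-base windows Cbx7 held 23 CpG and Cbx8 held 22, so the called and the uncalled paralogue were alike in this count. The stretch outside exons was sparser in Cbx7, with 6 CpG in 128 bases, than in Cbx8, with 18 in 194 bases. The Cbx7 stretch ends 123 bases before the start and the Cbx8 stretch 57 bases before it. They are thus different parts of the windows, and their densities do not compare the promoters as a whole.

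The polyhomeotic genes, whose proteins join PRC1 complexes into larger assemblies, also moved in both directions. Phc2 (chromosome 4, 128654702 to 128752881) stood at 104 and 95.3 CPM in cultures of MK1 and 179.9 and 190.1 CPM in cultures of MK2, and no culture of one line came near the other line. It rose by 0.89 (SE 0.11, adjusted p = 7.44e-04), the largest rise among the 35 tested genes. Its chromosome's median was 0.37, and with that subtracted the change was 0.52. Phc3 stood at 62.8 and 59.7 CPM in MK1 and 49.8 and 37.3 CPM in MK2 and fell by 0.49 (SE 0.15, adjusted p = 0.0309), with an adjusted p of 0.157 without MK1 replicate 1, 0.105 without MK1 replicate 2 and 0.0827 without MK2 replicate 2. Phc1 stood at 30.5 and 26.6 CPM in MK1 and 37.5 and 34.2 CPM in MK2, higher in both MK2 cultures, and missed the threshold at 0.33 ± 0.13 (SE, adjusted p = 0.0617). It was called in 1 of the 4 fits that left out a library (adjusted p = 0.0473 without MK2 replicate 2, 0.114 to 0.320 in the other 3) and under the crossed replicate block, which pairs unlike-numbered cultures (adjusted p = 0.0402). Of the family's summed TPM, Phc2 took the largest share, 64.1% and 64.3% in MK1 and 74.7% and 78.3% in MK2. Rybp, a subunit of variant PRC1, did not separate the lines at 57.3 and 63.1 CPM in MK1 and 67.1 and 57.7 CPM in MK2 (change 0.053 ± 0.12 (SE), interval -0.24 to 0.34). Rybp and Dnmt3a each have an annotated pseudogene, so reads that align to both may be missing from or misplaced in their counts.

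Of the pair of genes that act against Polycomb marks, 1 was called. Asxl1 encodes the cofactor of the deubiquitinase that removes the PRC1 mark, and it stood at 178 and 194 CPM in cultures of MK1 and 151 and 127 CPM in cultures of MK2. It was lower in both MK2 cultures, by 0.42 (SE 0.12, adjusted p = 0.0266), and the adjusted p was 0.0881 without MK1 replicate 1, 0.158 without MK1 replicate 2 and 0.0706 without MK2 replicate 2. Asxl1 and Dnmt3b lie 245442 bases apart on chromosome 2 and were called in opposite directions. Kdm6b, a demethylase of the PRC2 mark, overlapped between lines at 65.3 and 55.5 CPM in MK1 and 59.4 and 47.0 CPM in MK2 (change -0.18 ± 0.15 (SE), interval -0.54 to 0.17). Its X-linked paralogue Kdm6a, taken from the list of other Polycomb genes, stood at 47.6 and 47.2 CPM in MK1 and 37.2 and 35.1 CPM in MK2 and fell by 0.39 (SE 0.10, adjusted p = 0.0173).

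Of the 4 DNA methylation genes, 2 were called higher in MK2 and none lower, which is 50% called beside 54.6% of all genes tested. Dnmt3b (chromosome 2, 153649449 to 153687730), a de novo methyltransferase, stood at 8.65 and 11.9 CPM in cultures of MK1 and 21.8 and 15.9 CPM in cultures of MK2, with both MK2 cultures above both MK1 cultures but a wide spread in each line. It rose by 0.87 (SE 0.22, adjusted p = 0.0155), and the adjusted p was 0.116 without MK1 replicate 1. Uhrf1 (chromosome 17, 56303337 to 56323486), which brings DNMT1 to newly copied DNA, stood at 168 and 187 CPM in MK1 and 247 and 232 CPM in MK2. It rose by 0.43 (SE 0.11, adjusted p = 0.0145), a call that depended on the MK1 cultures (adjusted p = 0.136 without MK1 replicate 1 and 0.0542 without MK1 replicate 2). Dnmt1, the maintenance methyltransferase, stood at 221 and 242 CPM in MK1 and 313 and 250.2 CPM in MK2 and was not called at 0.28 ± 0.14 (SE, adjusted p = 0.122), but was called higher in the fit that left out 1 library (adjusted p = 0.0143 without MK2 replicate 2). Dnmt3a, the other de novo enzyme, overlapped at 71.0 and 64.7 CPM in MK1 and 85.1 and 64.3 CPM in MK2 (interval -0.22 to 0.50). Per length, Dnmt1 led the 3 methyltransferases with 79.3% and 80.6% in MK1 and 78.5% and 79.6% in MK2, a share that overlapped between lines. The share of Dnmt3b was 4.52% and 5.77% in MK1 and 7.96% and 7.38% in MK2.

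Most proliferation markers were called higher in MK2, as were some of these genes. Of 22 proliferation markers, 16 were called higher in MK2 and none lower, beside 25.9% and 28.6% of all genes tested. Their median log2 change was 0.61. Pcna, the replication clamp, stood at 210.5 and 248 CPM in MK1 and 477 and 429 CPM in MK2. Mki67, a marker of cycling cells, stood at 355 and 437 CPM in MK1 and 684 and 382 CPM in MK2 and was not called (adjusted p = 0.202). In MK1 it was higher in replicate 2 and in MK2 in replicate 1. Among the 35 tested genes, 13 (37.1%) had that same order of cultures in both lines, beside 20 of the 22 proliferation markers, of which Mki67 itself is 1, and 26.6% of all tested genes. They were Ezh2, Eed, Suz12, Rbbp4, Jarid2, Rnf2, Cbx2, Cbx8, Rybp, Asxl1, Dnmt1, Dnmt3b and Uhrf1. This order is within lines. Between lines, Suz12, Rbbp4, Cbx2, Dnmt3b and Uhrf1 were called higher in MK2, Jarid2 and Asxl1 were called lower, and the others were not called. The part of proliferation in the differences between lines was not tested.

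The TET genes, whose enzymes oxidise methylated cytosine, differed in level per length, with Tet3 first and Tet1 last in all 4 libraries. Tet3 (chromosome 6, 83362374 to 83441678) stood at 80.8 and 74.3 CPM in cultures of MK1 and 152 and 112 CPM in cultures of MK2, with both MK2 cultures higher. It rose by 0.76 (SE 0.16, adjusted p = 0.00680), a call that ended without 1 library (adjusted p = 0.0652 without MK1 replicate 2). Tet2 stood at 27.1 and 25.4 CPM in MK1 and 26.5 and 15.2 CPM in MK2, where only MK2 replicate 2 was low. Its change of -0.34 ± 0.25 (SE) was not called (interval -0.93 to 0.25), but the gene was called lower in the fit that left out 1 library (adjusted p = 0.00367 without MK2 replicate 1). Tet1, with 5 and 6 counts in MK1 and 4 and 3 counts in MK2, was barely detected in either line (ratio of summed counts 1.47, MK1 over MK2, 95% interval 0.520 to 4.47, counting error only). Of the family's summed TPM, Tet3 took 71.4% and 71.0% in MK1 and 82.8% and 86.1% in MK2, and nearly all the rest was Tet2.

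Trim28 and Setdb1, which together set heterochromatin at retroelements bound by KRAB zinc finger proteins, were both called higher in MK2. Setdb1 (chromosome 3, 95323525 to 95357202), a histone H3 lysine methyltransferase, stood at 41.5 and 38.4 CPM in cultures of MK1 and 69.5 and 64.9 CPM in cultures of MK2. The lines did not overlap, and it rose by 0.75 (SE 0.11, adjusted p = 0.00162). Trim28, the corepressor also called KAP1, stood at 275 and 269.6 CPM in MK1 and 339 and 325 CPM in MK2. Its rise of 0.29 (SE 0.10) was near the threshold (adjusted p = 0.0450). The adjusted p was 0.186 without MK1 replicate 1, 0.212 without MK1 replicate 2 and 0.0809 without MK2 replicate 1, and 0.0544 to 0.0897 under library size alone, upper-quartile scaling and both other count filters. Trim28 had the highest level per length of the 36 genes, at 176 TPM in MK1 and 205 TPM in MK2.

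**Figure D3:**
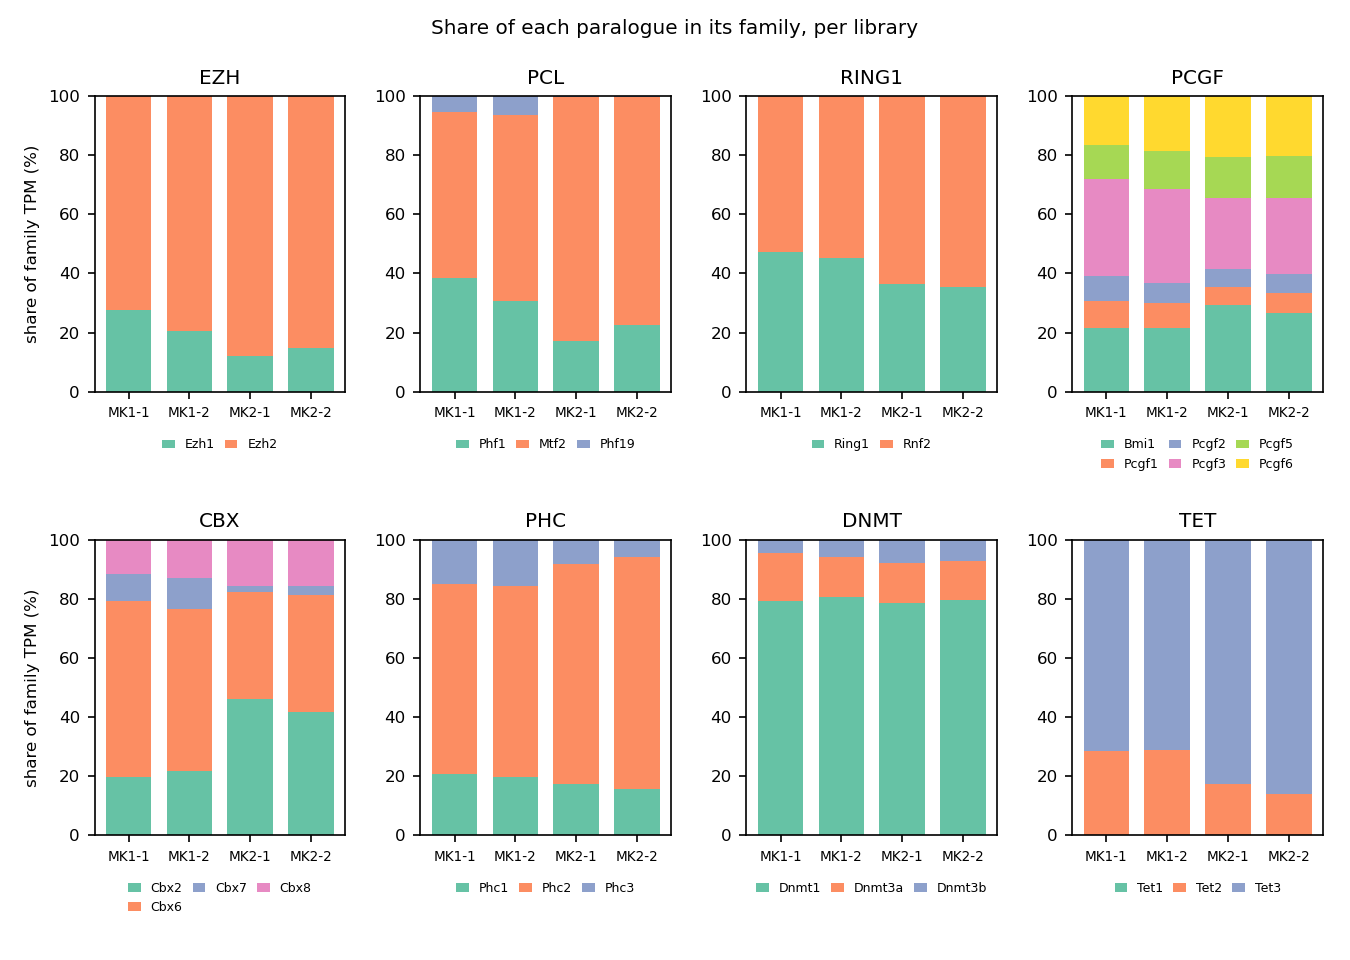
Share of each paralogue in the summed TPM of its family, in percent, for each of the 4 libraries (MK1-1 is MK1 replicate 1, and so on). Cbx2 goes from 19.8% and 21.8% in MK1 to 46.2% and 41.6% in MK2, whereas Dnmt1 stays between 78.5% and 80.6% in all 4 libraries.

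Other genes of the same pathways were read from lists of related genes. Of 27 tested other Polycomb genes, 7 were higher and 8 lower, with a median of -0.043, so the share called was close to the 54.6% of all genes tested. E130012A19Rik, which encodes the PRC2 cofactor EPOP, rose by 1.38, and Wdr5, a subunit shared by several chromatin complexes, by 0.93. Bcorl1, of PRC1.1, fell by 0.99 and Aebp2, the PRC2 cofactor of the form without Polycomb-like proteins, by 0.86. These 4 genes were called in both directions (adjusted p = 3.26e-04, 6.63e-04, 0.00148 and 9.06e-04 in that order).

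Of 15 tested other DNA methylation genes, 3 were higher and 4 lower, with a median of 0.10, a smaller share called than the 54.6% of all genes. Hells, the remodeller that helps methylate heterochromatin, stood at 74.9 and 91.7 CPM in MK1 and 198 and 162 CPM in MK2 and rose by 1.11, with Cdca7, its partner, rising by 0.93 and the methyl-CpG-binding-domain gene Mbd3 by 0.70. The methyl-CpG reader Zbtb4 fell by 1.17. Of 11 tested other DNA demethylation genes, 1 was higher and 3 lower, with a median of 0.056, also a smaller share than that. The 3 were Gadd45g, Gadd45b and Gadd45a, stress-induced genes linked to demethylation and to p53 signalling, with changes of -2.03, -0.77 and -0.92, and the gene that rose was Apex1, a base-excision repair nuclease, by 1.16.

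The list of histone H3 lysine 9 and KRAB genes, which holds demethylases of that lysine besides silencing factors, leaned higher, as Setdb1 and Trim28 did. Of 28 tested, 12 were higher and 2 lower, beside 25.9% and 28.6% of all genes. Their median was 0.26, and 14 were not called, beside 54.6% of all genes called in either direction. Suv39h2 and Suv39h1, the methyltransferases of constitutive heterochromatin, rose by 1.43 and 1.00, Chaf1b, of the histone chaperone that works at replication forks, by 1.14, and Ehmt1 by 0.70. Suv39h2 stood at 8.03 and 10.5 CPM in MK1 and 28.4 and 21.5 CPM in MK2, and no MK1 culture reached an MK2 culture. Several of these genes act during DNA replication, and the proliferation markers given above moved with them. Their part in this pattern was not tested.

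**Figure D4:**
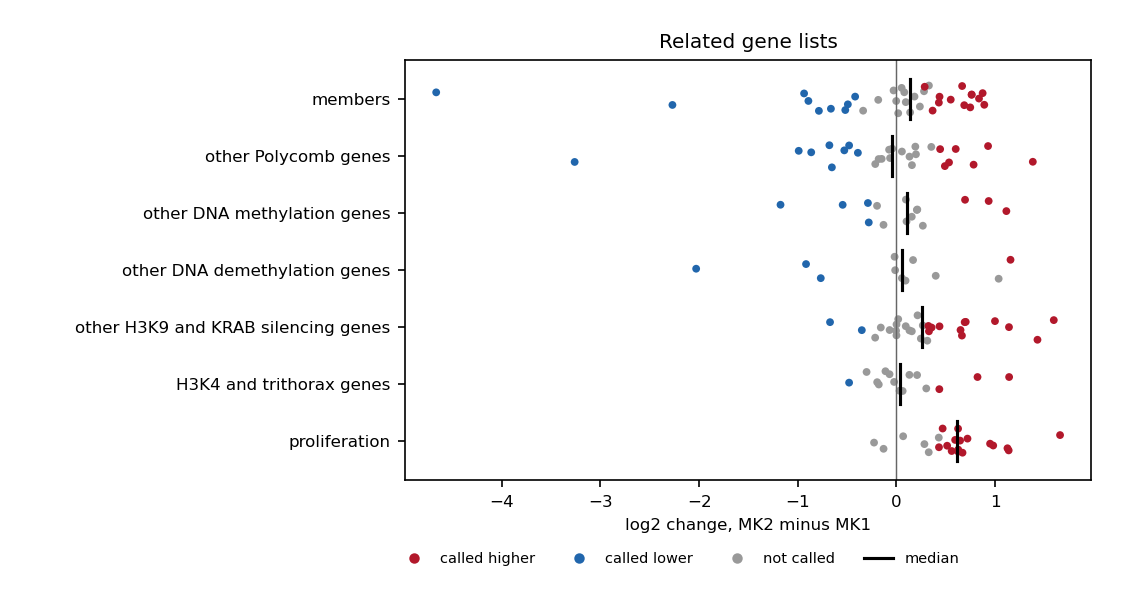
Log2 change (MK2 minus MK1) of every tested gene of the 36, of 5 related lists and of the proliferation markers, with points scattered vertically for legibility and the list median as a black bar. Medians of the 36 genes and the 5 related lists lie between -0.043 and 0.26, and that of the proliferation markers at 0.61.

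The Cdkn2a locus, the textbook target of BMI1 and CBX7 in PRC1, was read beside these levels. Cdkn2a, a locus of cell cycle inhibitors, stood at 47.9 and 45.5 CPM in MK1 and 4.93 and 6.45 CPM in MK2, with both MK2 cultures several-fold below MK1, a fall of 3.03 on the log2 scale (adjusted p = 3.84e-05). Bmi1 was higher and Cbx7 lower in MK2. Cdkn1c, a CDK inhibitor under imprinting and Polycomb control, stood at 7.70 and 8.94 CPM in MK1 and 0.159 and 0.212 CPM in MK2, and only its MK1 counts met the low-count filter. Cdkn2b, next to Cdkn2a and named after its values were seen, was not called at 14.9 and 12.6 CPM in MK1 and 8.66 and 24.2 CPM in MK2 (change 0.27 ± 0.42 (SE), adjusted p = 0.617), and its MK2 cultures lay on either side of MK1. With Cdkn1a, 3 of the 4 CDK inhibitors listed were lower in MK2, beside 28.6% of all genes. With 2 lines no relation between regulators and loci can be tested.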

How the data were processed

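The authors deposited raw read counts per gene, not normalised, for 4 libraries made from total RNA with an Illumina TruSeq kit, per the labels' protocols. Per the file header, TopHat alignments were counted over exons by gene name with featureCounts 1.4.6-p4 on the UCSC mm10 annotation, with no option for strand or multiple alignments. The submitters' processing notes name another counter version (featureCounts 1.5.0), the aligners Bowtie2 2.2.6 and TopHat2 2.0.13, and the test DESeq2 1.10.1. Columns were matched to samples by the line and replicate in their names (0 left over), although the command in the header names MKU where the columns name MK2.

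Counts were tested with edgeR 4.0.16 (R 4.3.3): filterByExpr (minimum count 10), TMM scaling, quasi-likelihood F test, two-sided, Benjamini-Hochberg over 12479 genes, and glmTreat at a log2 change of 1. SE is the log2 change divided by the root of F. DESeq2 1.42.0 served as an alternative. The procedure was tested on simulated data. Between replicates the median chi-square per gene was 2.88 in MK1 and 4.28 in MK2, above counting noise. The members and lists were chosen with earlier results of these data known. All 36 members are named, and of each related list up to 4 called genes with the largest change at 1 CPM or more, besides Krt5, Krt14, Trp63, Mki67, Pcna, Cdkn2a, Hells and Kdm6a whatever their values. Of 210 listed symbols, 8 were matched by synonym and 1 was not found. Promoter sequences are RefSeq's (GRCm38.p6).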

Additional observations from a re-analysis of the deposited data

How the results depend on the processing

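Scaling by DESeq2 size factors, library size or upper quartile, other count filters, DESeq2's test and the replicate block left 11 to 13 genes called higher and 7 to 9 lower, and 2 beyond 2-fold in every alternative fit. Leaving out a library gave 3716 to 6847 calls over all genes, 5 to 15 genes called higher and 5 to 9 lower. With 1 culture left in a line, that culture is assumed to vary like those of the other line. With the replicate number as a block, 5908 genes were called over all, 11 of the 35 higher and 7 lower, and Rbbp4, Phf1, Asxl1 and Trim28 lost their calls. The labels do not tie equal numbers together, and the deviations of same-numbered cultures correlated at -0.159 across genes. The crossed block, added after this was seen, gave 7454, 14 and 9 calls. Some uncalled genes changed direction, and the cause was not tested. Over the fits without a library, the log2 change ranged from -0.12 to 0.064 for Eed, -0.13 to 0.12 for Pcgf1, -0.000095 to 0.39 for Pcgf2, -0.21 to 0.22 for Cbx8, -0.054 to 0.16 for Rybp, -0.071 to 0.33 for Dnmt3a and -0.79 to 0.014 for Tet2. Upper-quartile scaling gave -0.040 for Cbx8 and -0.0051 for Rybp. It moved the median change of all genes to -0.067 and the share of higher among called genes from 47.5% to 42.6%. Subtracting the chromosome median turned Rbbp4 to -0.0035. On raw counts the Dnmt1 share was 0.359 percentage points higher in MK2, against -0.903 per length. Phf19 and Tet1 are limited by their low counts.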

Other observations

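The list of trithorax genes and histone H3 lysine 4 enzymes holds both methyltransferases, which counter Polycomb, and demethylases. Its genes were mostly not called. Of 15 tested, 3 were higher and 1 lower in MK2, with a median log2 change of 0.032 (edgeR, Benjamini-Hochberg adjustment; 54.6% of all genes were called in either direction). Setd1a, a histone H3 lysine 4 methyltransferase, stood at 67.9 and 63.9 CPM in MK1 and 156 and 135 CPM in MK2 and rose by 1.14 (adjusted p = 4.20e-04), and its complex partner Ash2l by 0.82. Ncoa6, a subunit of a related complex, rose by 0.43. The member that fell was Mll1, the methyltransferase also named Kmt2a, by 0.48 (adjusted p = 0.0338).

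Germline genes that DNA methylation or PRC1.6 is known to silence in body cells stayed low in both lines. Of 25 listed, 13 had no count in any library, among them Mael, Sycp1, Tex101 and Hormad1, and 24 stayed under 1 CPM in all 4 libraries. A library without a count allows a level of up to 0.0987 to 0.119 CPM (3 counts, counting error only). The exception was Zcwpw1, a reader of histone marks at meiotic breaks, at 5.95 and 4.80 CPM in MK1 and 10.2 and 7.34 CPM in MK2 (adjusted p = 0.0367).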
